A study of Mus musculus with 4 samples.

Results

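The peaks described here are those assigned to the receptors for sphingosine-1-phosphate (S1P) and lysophosphatidic acid (LPA) in a mouse lung adenocarcinoma line. They are all 53 peaks whose assigned gene symbol in the authors' deposited table was S1pr1, S1pr2, S1pr3, S1pr4, S1pr5, Lpar1, Lpar2, Lpar3, Lpar5 or Lpar6, out of 80881 peaks assigned to 18759 genes. The 5 S1P receptors held 28 of them and the 5 LPA receptors 25. The family was put together by gene name and chosen by the authors' accessibility difference in the same comparison, since the rise of S1pr3 peaks was already known. Its values are therefore a description and no test of the family.

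The assay was ATAC-seq, where a transposase cuts open DNA and tags it, applied to KPC cells, a line from a KP mouse lung tumour. Cells of both groups had received Cas9 from a lentivirus with puromycin selection, and CRISPR activation used a second lentiviral vector, lenti-SAM-Hygro. The groups differed in the guide, directed at Malat1 (mA2 dRNA, 2 libraries labelled as biological replicates) or at luciferase, which mouse cells lack (Con dRNA, 2 libraries). Each group came from a single cell line, and clonality of the line was not given in the sources used here. Each value below is a group mean of normalized reads in a peak, as the authors give it, with coordinates in mm10. The table's 4 library columns could not be tied to samples by name, so neither values per library nor their spread are shown. Peaks count as called at an adjusted p under 0.05 in the authors' deposited table, and only called peaks are said to have risen or fallen. More cells with an open site and more opening per cell cannot be told apart in bulk samples. The error printed beside some log2 differences is a standard error implied by the authors' p-value, namely the difference divided by that p-value's normal score.

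S1P and LPA are lysophospholipids, small signalling lipids of blood and tissue fluid. S1P is made from sphingosine by sphingosine kinases, and extracellular LPA mostly from lysophosphatidylcholine by autotaxin. Both act through G protein-coupled receptors at the cell surface: S1pr1 couples to Gi, S1pr2 and S1pr3 also to Gq and to the G12 and G13 proteins, S1pr4 and S1pr5 to Gi and G12/13, and the LPA receptors to overlapping sets of these. S1pr1 guides lymphocytes out of lymphoid organs and, together with S1pr3, acts in endothelium, while LPA receptors drive migration and cytokine release in many epithelial tumours.

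The start-site sequences of the family show what kind of promoter each receptor has, and 5 of them are printed because they span the differences between the receptors' peaks: Lpar3, whose start-site peak rose, S1pr3, which has distal peaks that rose and none over the start site, S1pr2, the most open of the family members with a sequence in the table, S1pr5, whose peak is weak, and Lpar6, which is open with hardly any CpG. Each is the stretch of 250 bases before the transcription start in RefSeq (GRCm38.p6, the assembly that mm10 is built on), 5′ to 3′ along the gene, with the GC box GGGCGG, read on both strands, in capitals.
Lpar3, chr3:146220711-146220960, plus strand: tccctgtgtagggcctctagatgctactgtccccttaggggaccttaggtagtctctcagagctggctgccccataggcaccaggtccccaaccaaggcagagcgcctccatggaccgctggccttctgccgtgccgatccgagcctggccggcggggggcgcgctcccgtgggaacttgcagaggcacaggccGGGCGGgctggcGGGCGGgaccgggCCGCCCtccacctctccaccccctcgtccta
S1pr3, chr13:51408368-51408617, plus strand: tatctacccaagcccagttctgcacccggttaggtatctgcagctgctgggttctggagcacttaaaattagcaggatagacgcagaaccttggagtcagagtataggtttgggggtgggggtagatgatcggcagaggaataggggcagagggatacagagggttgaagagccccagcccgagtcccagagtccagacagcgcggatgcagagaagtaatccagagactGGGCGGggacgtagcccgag
S1pr2, chr9:20976794-20977043, minus strand: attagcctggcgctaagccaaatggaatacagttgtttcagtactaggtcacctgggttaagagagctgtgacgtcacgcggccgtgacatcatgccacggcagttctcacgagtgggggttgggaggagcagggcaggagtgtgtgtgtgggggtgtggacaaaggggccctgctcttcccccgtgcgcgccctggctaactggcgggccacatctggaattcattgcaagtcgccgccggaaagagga
S1pr5, chr9:21248444-21248693, minus strand: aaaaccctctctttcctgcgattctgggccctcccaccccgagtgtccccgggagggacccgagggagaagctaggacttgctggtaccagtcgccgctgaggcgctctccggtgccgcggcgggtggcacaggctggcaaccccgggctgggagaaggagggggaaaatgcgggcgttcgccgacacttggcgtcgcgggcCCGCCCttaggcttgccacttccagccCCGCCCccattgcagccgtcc
Lpar6, chr14:73237641-73237890, plus strand: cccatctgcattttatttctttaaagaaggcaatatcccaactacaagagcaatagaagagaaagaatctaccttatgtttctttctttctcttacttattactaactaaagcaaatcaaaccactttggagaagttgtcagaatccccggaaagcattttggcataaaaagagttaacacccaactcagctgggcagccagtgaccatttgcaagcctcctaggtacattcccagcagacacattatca

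The Lpar3 stretch was GC-rich, with 69.6% G or C and 17 CpG dinucleotides, against medians of 52.4% and 6 over 32851 RefSeq promoter stretches of that length, and 245 of its 250 bases lay inside the peak that rose. It holds 3 GC boxes, the letters that SP and KLF factors bind. Of all these promoters 8.47% hold at least 3 and 32.7% at least 1. S1pr5 was as GC-rich at 69.2% with 22 CpG and 2 GC boxes, and 241 of its bases lay inside a weak peak. S1pr2 had 59.2%, 14 CpG and no GC box. S1pr3 had 56.4%, 9 CpG and 1 GC box, and 0 of its 250 bases lay inside a peak. Lpar6 had 39.2% and 1 CpG, yet 138 of its bases lay inside a peak of middling strength. Of the family, 9 receptors had 12 promoters in the table, and S1pr1 was not matched.

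A further 8 motifs, which can overlap one another, were searched on both strands in the same stretches. The letters of ETS factors, CCGGAA, are found in 12.0% of all promoters and occurred in S1pr2 and Lpar6. Those of TEAD factors, GGAATG, are found in 12.6% and occurred in Lpar6. The E-box, CANNTG, is found in 66.2% and occurred in each printed stretch other than Lpar3. No printed stretch held the AP-1 letters TGANTCA, which 6.75% of all promoters hold. The same was true of the RUNX letters TGTGGT, which 14.0% of promoters hold, and of the FOX letters TGTTTAC, which 3.17% hold. It was also true of the GATA letters AGATAA at 9.99% of promoters, and of the SOX letters ACAATG at 10.7%. Promoters of the family that are not printed did hold some of these letters. AP-1 letters occurred in Lpar2, RUNX letters in Lpar1, Lpar2 and Lpar5, SOX letters in Lpar1 and GATA letters in Lpar5. These are matches of letters in short windows, and the sequences of the distal peaks were not read here.

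In the authors' deposited table, 6 of the 53 receptor peaks were called higher with the Malat1 guide and 0 lower. All 6 lay at S1pr3 (4 of 7 peaks) and Lpar3 (2 of 14), and the other 8 receptors had 0 calls among 32 peaks. Among all peaks, 2.23% were called higher and 0.507% lower, or 2.73% in either direction. Without adjustment, the authors' deposited table puts 12 receptor peaks higher at a p under 0.05, 7 at S1pr3 and 5 at Lpar3, and 1 lower, at S1pr1. The shares of all peaks at that threshold were 8.86% higher and 2.85% lower. The median log2 difference, Malat1 guide minus luciferase guide, was 0.28 over the receptor peaks and 0.09 over all peaks, and 0.19 over the 32 peaks of the other 8 receptors.

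**Figure D1:**
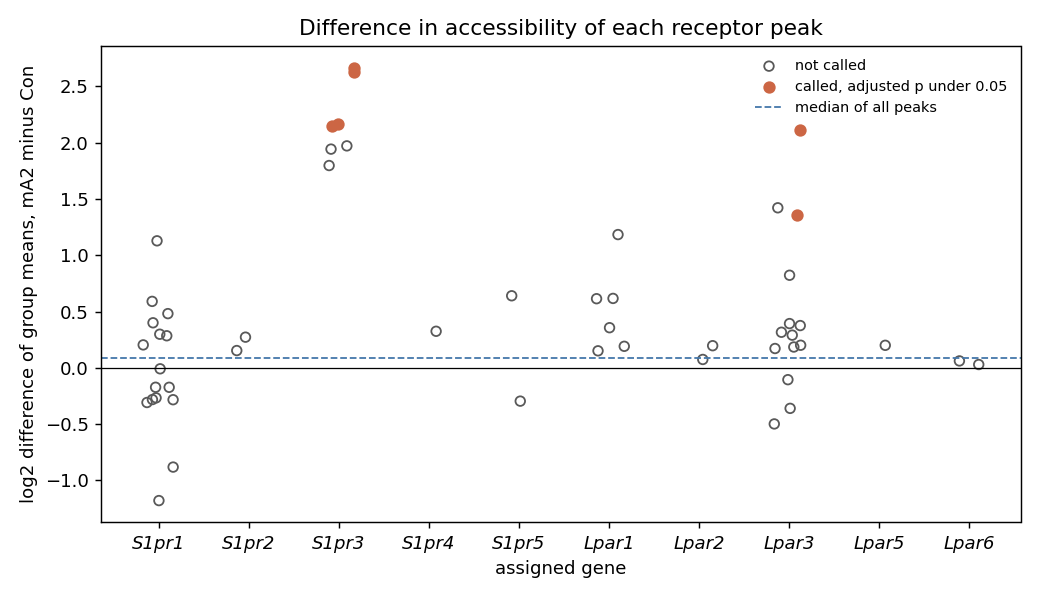
Log2 difference of the authors' group means (mA2 minus Con) for each of the 53 receptor peaks, by assigned gene; filled points were called at an adjusted p under 0.05, open points were not, horizontal jitter only separates points, and the dashed line is the median of all peaks (0.09). All 7 S1pr3 peaks lie between 1.80 and 2.67, above every peak of the other receptors except the start-site peak of Lpar3 at 2.11.

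S1pr3, an S1P receptor that, like S1pr2, couples to Gi, Gq and G12/13, was the receptor with the most called peaks. The gene (gene ID 13610) lies on the plus strand of chromosome 13 from 51408618 to 51422797, and its 7 peaks ran from 94.8 kb upstream to 9.91 kb inside the gene. The leading one, intergenic at chr13:51314523-51314923 and 93.7 kb upstream, went from 96.0 mean normalized reads under the luciferase guide to 430 under the Malat1 guide. That is a log2 difference of 2.16 with an implied standard error of 0.26. It ranks 5 by p among all peaks (the authors' deposited table, adjusted p 2.2e-12). In control cells this peak was of ordinary strength, above 59.6% of all peaks, and with the Malat1 guide it was above 90.0%.

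The other called S1pr3 peaks were weaker in control cells. A peak centred 1122 bp from the leading one, at chr13:51313401-51313801, rose from 39.3 to 249 reads, a log2 difference of 2.67 with an implied standard error of 0.45 (the authors' deposited table, adjusted p 3.81e-06). A peak 84.9 kb upstream rose from 10.8 to 47.8 reads (the authors' deposited table, adjusted p 0.00977). Closer to the gene, a peak 12.7 kb upstream at chr13:51395541-51395941 rose from 14.4 to 88.7 reads, a log2 difference of 2.63 with an implied standard error of 0.56 (the authors' deposited table, adjusted p 6.10e-04). The authors annotated it as an intron of an Ensembl transcript other than S1pr3. So 3 of the 4 called peaks lay 84.9 to 94.8 kb from the start site, and the weakest in control cells was above only 0.835% of all peaks.

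The remaining 3 S1pr3 peaks had similar ratios on very low levels and were not called. The peak nearest the start site, 3.68 kb upstream, held 40.8 against 10.4 reads, and a peak 9.91 kb inside the gene, annotated as a 5' UTR, held 37.8 against 10.9. An intergenic peak 79.3 kb upstream held 36.0 against 9.36 reads. For these the authors' deposited table lists adjusted p from 0.0732 to 0.0837, with implied standard errors of 0.60 to 0.65 on the log2 scale. Their control levels, 9.36 to 10.9 reads, were like the 10.8 of the called peak 84.9 kb upstream.

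The rise around S1pr3 took in neighbouring peaks assigned to another gene. From chr13:51227753 to 51418953, a span of 191 kb, 9 consecutive peaks had ratios from 3.47 to 6.35. The stretch was drawn after the values were seen, by a ratio of at least 3, which 1.57% of all peaks reached. That all 9 peaks reach this ratio was therefore fixed by how the stretch was drawn. Of these peaks 7 were assigned to S1pr3 and 2 to the pseudogene H2af-ps2, and the latter rose from 18.8 to 96.1 reads and from 29.9 to 119 reads (the authors' deposited table, adjusted p 8.12e-05 and 7.32e-04). The next peak on the downstream side, at Shc3, held 115 against 110 reads, and the next on the upstream side, at Nxnl2, held 25.9 against 11.4 (the authors' deposited table, adjusted p 0.995 and 0.513). Farther downstream in the plotted region, the uncalled Shc3 peaks all had a higher mean under the Malat1 guide, such as 44.5 against 14.9 reads. Uncalled Cks2 peaks ran both ways, such as 40.8 against 45.7 (the authors' deposited table, adjusted p 0.0903 and 0.988). Farther upstream, the uncalled Nxnl2 and Spin1 peaks all had a higher mean under that guide, the strongest at 168 against 91.4 reads. In the 1 Mb window from 51 to 52 Mb, 6 of 53 peaks were called higher, and the median log2 difference of its 46 peaks outside the family was 0.26.

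Chromosome 13 as a whole was shifted upward, with a median log2 difference of 0.23 and 3.08% of its 3477 peaks called higher. With the differences centred on the chromosome's median, all 4 S1pr3 calls held, and the highest adjusted p, at the peak 84.9 kb upstream, was 0.0352. At least 4 called higher peaks were found for 50 of the 18759 genes, or 0.267%, among them S1pr3. This share does not measure how rare S1pr3 is. Its rise was known when the family was chosen, and genes with fewer than 4 peaks cannot reach that count.

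**Figure D2:**
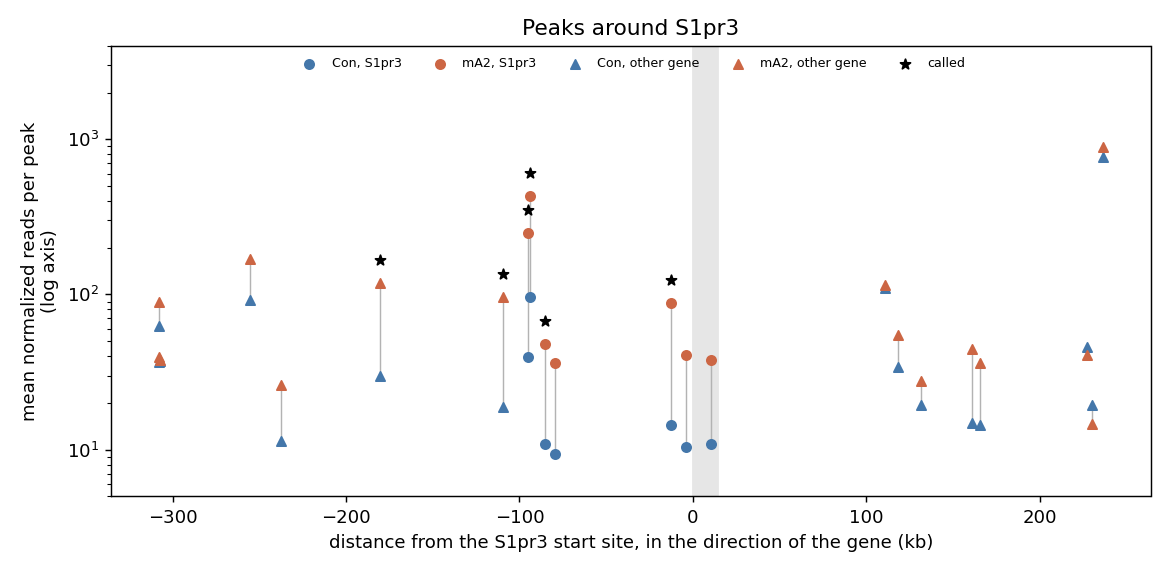
The authors' mean normalized reads (log axis) with the luciferase guide (Con) and the Malat1 guide (mA2) for peaks around the S1pr3 start site; circles are S1pr3 peaks, triangles peaks of other genes, stars mark called peaks and the grey band is the gene. The 7 S1pr3 peaks and the 2 called H2af-ps2 peaks all lie higher with the Malat1 guide, the strongest at 430 against 96.0 reads.

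Marker genes of the cell types that carry these receptors were read from peaks within 3 kb of a start site. Such a peak was found for 11 of 14 markers of lung epithelium, the labelled tissue of origin, without Epcam, Sftpa1 and Ager, and for 3 of 8 markers of endothelium, where S1pr1 and S1pr3 are prominent. The endothelial genes Cdh5, Pecam1, Tek, Tie1 and Emcn had none. Fibroblasts had 4 of 8 and leukocytes 2 of 10. The summed level of the strongest such peak per gene was 177 reads under the Malat1 guide and 112 in control cells for endothelium. It was 2191 and 2025 for lung epithelium, 866 and 767 for fibroblasts, and 125 and 145 for leukocytes. The median over the same genes was 54.4 and 36.3 for endothelium, 137 and 115 for fibroblasts, and 62.3 and 72.5 for leukocytes. For lung epithelium the median ran the other way from the sum, at 130 and 137. At all distances 6 of 41 endothelial marker peaks were called higher, at Cdh5 and Flt1, and 0 lower, while 2.23% of all peaks were called higher. Fibroblast markers had 4 of 58 called higher and 1 lower, at Col1a2, Postn and Thy1. Lung epithelium had 2 of 106 higher, at Foxa2 and Krt8, and 0 lower, and leukocytes 0 of 22 higher and 1 lower, at Laptm5. Within 3 kb of a start site 0 marker peaks of the 4 lists were called. The part of these cell types in the S1pr3 result was not tested.

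At Lpar3, an LPA receptor best known for its role in embryo implantation, the peak over the start site itself rose. The gene (gene ID 65086) lies on the plus strand of chromosome 3 from 146220961 to 146286214. The peak over its start, at chr3:146220716-146221116, covers the GC-rich stretch printed above and rose from 20.3 to 87.9 reads, a log2 difference of 2.11 with an implied standard error of 0.46 (the authors' deposited table, adjusted p 7.59e-04). In control cells this was a weak promoter peak, above 1.85% of the 13620 peaks of that class, and with the Malat1 guide it was above 20.1% of them. Of all promoter-class peaks 1.2% were called higher, and this was the single call among the 8 receptor peaks of that class.

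The Lpar3 peak with the smallest p was intergenic, 21.4 kb upstream at chr3:146199146-146199546. It rose from 164 to 420 reads, a log2 difference of 1.35 with an implied standard error of 0.21 (the authors' deposited table, adjusted p 2.8e-07). An intronic peak 36.5 kb inside the gene held 133 against 49.5 reads and just missed the call (the authors' deposited table, adjusted p 0.0534).

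Differences at the remaining Lpar3 peaks were smaller than at that one, and some ran the other way. The intronic peaks 30.8 and 4.43 kb from the start site held 403 against 310 and 340 against 273 reads. Of the 12 Lpar3 peaks that were not called, 9 had a higher group mean under the Malat1 guide and the lowest log2 difference was -0.50. Among 8 peaks of other genes within 100 kb of the 2 called peaks, 0 were called and 6 had a higher group mean under the Malat1 guide, with a median log2 difference of 0.32. A higher group mean under that guide was found at 60.8% of all peaks and at 47.7% of those on chromosome 3. Chromosome 3 had a median log2 difference of -0.02 and 1.57% of its peaks called higher, and both Lpar3 calls held with the differences centred on that median, with a highest adjusted p of 7.71e-04.

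**Figure D3:**
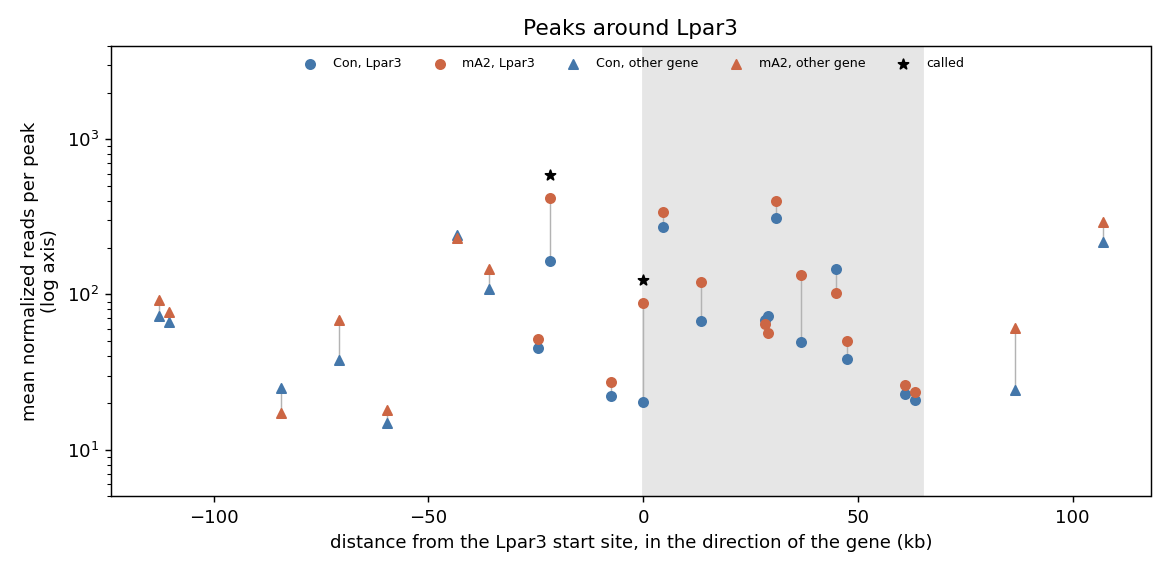
The authors' mean normalized reads (log axis) in both groups for peaks around the Lpar3 start site; symbols as in the plot of the S1pr3 region. The starred peaks are those 21.4 kb upstream (420 against 164 reads) and at the start site (87.9 against 20.3), and the unstarred peak 36.5 kb inside the gene, at 133 against 49.5 reads, has a ratio of 2.68, against 2.56 at the starred upstream peak.

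S1pr1, the Gi-coupled receptor of lymphocyte egress and endothelium, had the most peaks of the family and 0 called in either direction. Its start-site peak, at chr3:115714740-115715140, was the strongest of all 53 and went from 750 reads in control cells to 606, a log2 difference of -0.31 with an implied standard error of 0.17 (the authors' deposited table, adjusted p 0.526). In control cells it was above 89.5% of all promoter peaks. Over its 16 peaks the median log2 difference was -0.09, with 7 higher and 9 lower means. Over those within 50 kb of the start site alone the median was 0.28, so its direction turns with the distance allowed. The smallest p belonged to an intergenic peak 33.4 kb upstream that held 15.1 against 34.3 reads (the authors' deposited table, adjusted p 0.420). A peak 67.6 kb downstream of the start site leaned the other way, with 49.8 against 22.8 reads (the authors' deposited table, adjusted p 0.547).

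S1pr2, which couples to G12/13 among other G proteins, had an open start site in both groups. Its peak held 524 against 471 reads and its intronic peak, 3.74 kb into the gene, 332 against 275 (the authors' deposited table, adjusted p 0.877 and 0.860). S1pr4, a receptor of leukocytes, had a single peak 2.51 kb upstream, annotated as a 3' UTR, with 94.4 against 75.4 reads. S1pr5, a receptor of natural killer cells and oligodendrocytes, had a start-site peak with 69.6 against 44.7 reads and an exonic peak with 27.9 against 34.2. The smallest adjusted p of S1pr4 and S1pr5 was 0.625 in the authors' deposited table, at the S1pr5 start site.

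Lpar1, the most widely expressed LPA receptor, had a higher group mean under the Malat1 guide at all 6 of its peaks, and none was called. Such a higher mean was found at 60.8% of all peaks and at 64.2% of those on chromosome 4, where Lpar1 lies. Its promoter peak held 275 against 241 reads, and the peak with the smallest p, intronic and 6.9 kb from the start site, held 38.2 against 16.8 reads (the authors' deposited table, adjusted p 0.482). The median log2 difference of the 6 was 0.49, though on the authors' own log2 fold, which lies nearer 0 at most receptor peaks, it was 0.07. Lpar2 had 2 promoter peaks that held 342 against 325 and 197 against 172 reads. Lpar5 had a single faint peak 2.07 kb upstream with 12.9 against 11.3 reads. Lpar6, a receptor that acts in hair growth, had 153 against 150 reads over its start site and 27.7 against 26.6 in a peak 15.6 kb away. The adjusted p of Lpar2, Lpar5 and Lpar6 peaks lay at or above 0.933 in the authors' deposited table.

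The levels nearest the start sites set the receptors in a wide order in control cells. All 53 windows are 401 bp long, so their reads do not differ through window width. Other differences between loci, such as GC content, were not adjusted for here. There is also no spread over libraries to tell neighbours in this order apart. S1pr1 came first with 750 reads, then S1pr2 with 471, Lpar2 with 325, Lpar1 with 241 and Lpar6 with 150, against a median of 265 over all promoter peaks. S1pr4 with 75.4, S1pr5 with 44.7, Lpar3 with 20.3, Lpar5 with 11.3 and S1pr3 with 10.4 reads followed, the S1pr3, S1pr4 and Lpar5 peaks lying 2.07 to 3.68 kb from the start site. With the Malat1 guide Lpar3 at 87.9 reads stood above S1pr5 at 69.6, and S1pr3 at 40.8 above Lpar5 at 12.9.

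**Figure D4:**
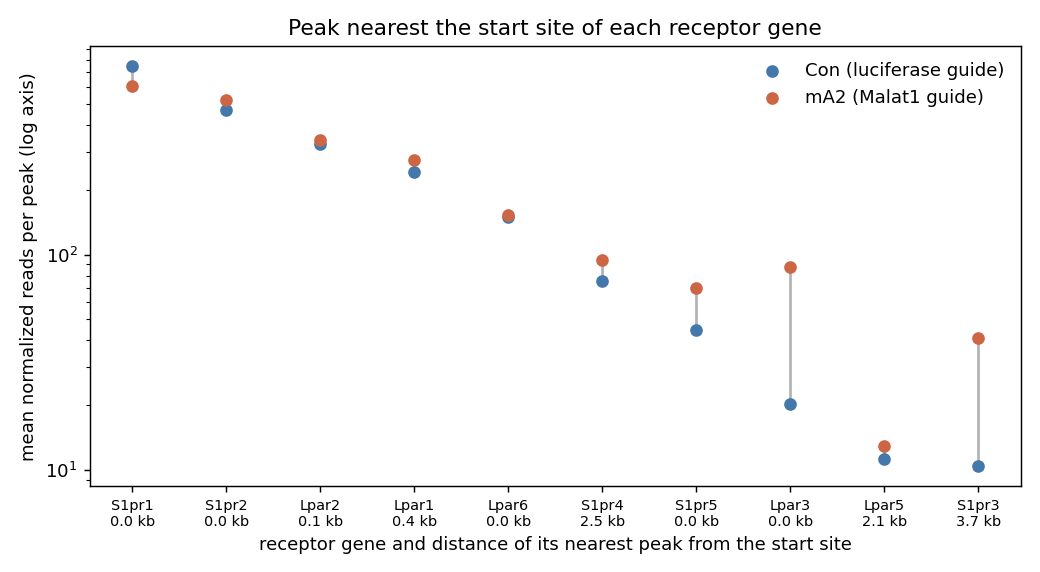
The authors' mean normalized reads (log axis) in the peak nearest the start site of each receptor, ordered by the level with the luciferase guide (Con), with the distance of that peak under each name. The called Lpar3 peak stands at 87.9 against 20.3 and the S1pr3 peak, which was not called, at 40.8 against 10.4, while the 5 receptors with the highest control levels keep ratios between 0.81 and 1.14.

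By position, 24 of the 53 receptor peaks were intergenic, 17 intronic and 8 at promoters. The 6 called peaks were 4 intergenic, 1 intronic and 1 promoter peak, and of all intergenic peaks 2.58% were called higher. Apart from 1 Lpar5 peak, every receptor peak had a mean of at least 20 normalized reads over both groups. Most S1pr3 peaks reached it only through the Malat1 group. Their median was 10.9 reads in control cells and 47.8 with the Malat1 guide.

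Other genes of the same pathway, in 5 lists of 84 symbols, 4 of them older names of listed genes, had 13 of 503 peaks called higher and 2 lower, and 73 of the symbols had a peak. That is 2.58% called higher, near the 2.23% of all peaks, and 0.507% of all peaks were called lower, so the count over the lists is not a result about the pathway. The median log2 difference was 0.12, against 0.09 over all peaks. All but 1 of these calls were assigned to lipid enzymes. The called peaks of Cers5, Asah2 and Agk lay 28.7 to 210 kb upstream of the assigned start site. They were annotated as intron or 5' UTR, so the assignment does not show that the enzyme gene itself opened. Genes of S1P synthesis and breakdown had 6 of 87 peaks called higher, 4 at the ceramide synthase Cers5 and 2 at the neutral ceramidase Asah2, and 1 lower, at the dihydroceramide desaturase Degs1. The best Cers5 peak, 47 kb upstream, rose from 37.1 to 128 reads, the best Asah2 peak from 58.6 to 153, and the Degs1 peak fell from 111 to 47.4 reads. The sphingosine kinases Sphk1 and Sphk2 had 0 calls among 7 peaks and 1 peak.

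Genes of transport and LPA metabolism had 6 of 100 peaks called higher and 1 lower. Agk, a mitochondrial lipid kinase that can make LPA, held 5 of the higher calls among its 8 peaks, all 147 to 210 kb upstream of its start site, and the strongest rose from 94.0 to 337 reads (the authors' deposited table, adjusted p 4.91e-09). The sixth lay at Pla1a, a phospholipase A1, where a peak rose from 27.6 to 79.4 reads. A peak 0.616 kb from the start site of Liph, a phospholipase that releases LPA for Lpar6 in hair follicles, fell from 106 to 45.3 reads. Enpp2, which encodes autotaxin, had 0 calls among 3 peaks.

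Other lysophospholipid receptors and the coupled G proteins with their effectors had 0 calls among their 23 and 135 peaks, of which 1 and 15 had a p under 0.05 before adjustment in the authors' deposited table. Of all peaks 11.7% had such a p. The smallest p in each was at Gpr132, with 94.3 against 170 reads, and at Gna12, the G12 alpha subunit, with 159 against 287, neither called. The list of known targets of S1P and LPA signalling also holds the transcriptional mediators Srf, Mrtfa, Mrtfb, Yap1, Wwtr1 and Tead1. It had 1 of 158 peaks called higher. That peak, 35.1 kb upstream of Ccn1, a matricellular protein and YAP target, rose from 626 to 888 reads (the authors' deposited table, adjusted p 0.0214). Over the 5 lists the higher calls dropped from 13 to 7 with differences centred by chromosome and to 6 with centring by 10 Mb window. The calls over all peaks dropped as well, from 1801 to 1179, or 1.46%, and to 1068, or 1.32%.

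**Figure D5:**
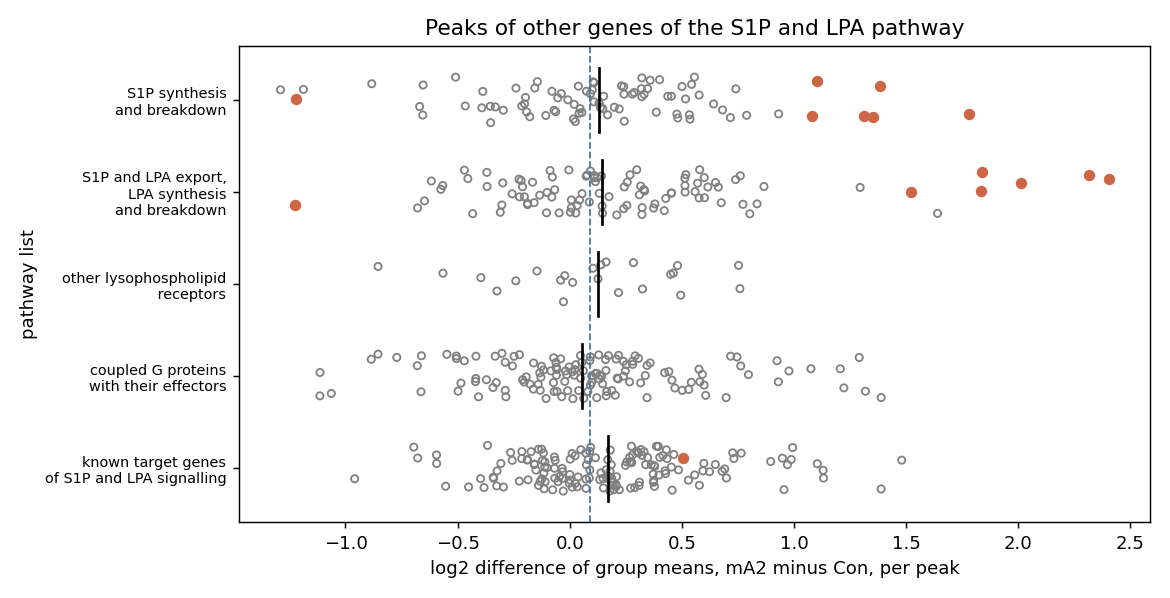
Log2 difference of the authors' group means (mA2 minus Con) for each peak of the 5 pathway lists; filled points were called at an adjusted p under 0.05, black bars are list medians, vertical jitter only separates points, and the dashed line is the median of all peaks (0.09). Filled points lie mostly in the first list and the second, with 13 to the right and 2 to the left, and list medians run from 0.05 to 0.17.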

How the data were processed

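ATAC-seq was done on 4 libraries, 2 per group. The submitters' processing notes name mm10 and, without versions or roles, Bowtie2, FastQC, MACS2, Picard, ChIPseeker, DiffBind and deepTools. The handling of duplicates, read shift, scaling and testing was not given in the sources used here. Per peak, the deposited table gives the log2 mean normalized read count per group, a log2 fold and a p-value before and after adjustment, all made by the authors, per the file headers. Groups are headed dmA12 and dLuc there, taken as mA2 and Con because the series holds a single contrast. The columns of per-library values (4) match no sample label and were not used, so the planned fits per library were not run, and depth per library is unknown. Summed over peaks, the authors' means gave a ratio of 1.07 between the groups.

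Ratios and log2 differences were computed from the deposited group means, since the authors' log2 fold is smaller (median ratio 0.78 at called and 0.12 at other receptor peaks). Adjusting the deposited p-values by Benjamini-Hochberg gave the authors' adjusted values to within 7.40e-06. For centring, a normal score from each p-value was shifted by the median divided by the implied standard error, and adjusted again over all peaks. Scores under 1 took the median standard error of their abundance bin (50 bins). The centring and the motif search were tested on simulated data. Python 3.11.15, scipy 1.17.1 and pandas 2.3.3 were used. Orientation of the RefSeq promoters was checked on 1558 overlapping pairs of opposite strand, and all were reverse complements. Members and lists were chosen with earlier results of these data known. Named are all called receptor peaks, the smallest p and the start-site peak (within 3 kb) of each receptor, the 2 strongest, neighbours within 100 kb of called peaks, and called peaks of each list (or else its smallest p). Other peaks named were chosen after their values were seen.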

Additional observations from a re-analysis of the deposited data

How the results depend on the processing

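No paired analysis was possible because no library column can be tied to a sample or replicate number, and for the same reason leaving out each library and a second tool were not run. The call count of receptor peaks stayed at 6 higher and 0 lower with an adjusted p under 0.01. So it did with centring on the median of all peaks, of the chromosome or (added after seeing the data) of the 10 Mb window. It also stayed with a mean of at least 20 reads over both groups and with a ratio of at least 2, but these 2 settings are no support. The 6 called peaks had ratios from 2.56 to 6.35. The called peaks 84.9 and 12.7 kb upstream of S1pr3 passed the read filter through the Malat1 group, at 47.8 against 10.8 and 88.7 against 14.4 reads. So did the 3 uncalled S1pr3 peaks, whose control levels were 9.36 to 10.9 reads. The call count was 10 with an adjusted p under 0.10, 3 within 50 kb and 1 within 3 kb of the start site, the last 2 because fewer peaks are counted. The median S1pr3 difference of 2.15 became 1.36 on the authors' log2 fold and 1.47 with a pseudocount of 10, and that of Lpar1, 0.49, became 0.065 on the authors' log2 fold. The family median of 0.28 ran from 0.03 on the authors' log2 fold to 0.29 within 50 kb of the start site. The sign turned at a Lpar2 promoter peak (-0.017 centred on all peaks, -0.034 by chromosome), the Lpar6 start-site peak (-0.062 on all peaks, -0.030 by chromosome and -0.055 by window) and the other Lpar6 peak (-0.030 on all peaks, -0.023 by window), none called. So did the medians of Lpar6, 0.05 (-0.046 on all peaks, -0.014 by chromosome, -0.039 by window), and of S1pr1, -0.09 (0.28 within 50 kb). The 13 higher calls of the pathway lists, whose alternatives were all added after seeing the data, became 5 with an adjusted p under 0.01, 18 under 0.10, 10 centred on all peaks, 7 by chromosome, 6 by window, 7 within 50 kb and 0 within 3 kb. Over all peaks the higher calls went from 1801 to 1307, 1179 and 1068 with the 3 centrings. Their 2 lower calls became 0 under 0.01, 4 under 0.10, 4 centred on all peaks, 1 by chromosome, 1 by window and 1 within 3 kb. The cause of the changes with centring was not tested. Depth per library is unknown, so what it limits cannot be given.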
